A study of Arabidopsis thaliana with 6 samples.

Results

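Alpha-expansins and xyloglucan endotransglucosylases are 2 families of secreted proteins that act on the primary wall of growing plant cells. Expansins loosen the contacts between cellulose and the matrix without cutting the polymers, so that the wall yields to turgor. Xyloglucan endotransglucosylase/hydrolases (XTHs) cut xyloglucan, the main hemicellulose of the *Arabidopsis* wall, and join the cut end to another chain, and some members add water in place of the second chain. Both families are known for their part in germination, hypocotyl and root elongation and root hair growth. HY5 is a bZIP transcription factor of light signaling, and plants without it have long hypocotyls in the light.

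The members were taken by locus code. Of the 29030 locus codes on the array, 43 were used here, 19 alpha-expansin (*EXPA*) and 24 *XTH* genes, which have 59 of the 43603 probes. The families hold further genes, which are described after the members. Total RNA of seedlings of cultivar Col, grown for 3 days in continuous white light without sucrose, was labeled with the dye Cy3 for one-color hybridization to Agilent arrays. The groups were *hy5* (SALK_096651, 1 insertion line) and wild type, with 3 arrays each and the same cultivar, age and light. Neither the labels nor the methods state whether the 3 samples of a genotype were separate plantings, so the p-values measure only the spread between these samples, which may be technical.

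A signal is given here as the processed intensity divided by the third quartile of all plant probes on that array, the scaling that the methods state. A gene was represented by its brightest probe, and genotypes were compared on the log2 scale with limma over all 21590 genes tested, two-sided. To be called, a gene needed a p under 0.05 after Benjamini-Hochberg adjustment as well as a 2-fold or larger change. A difference is *hy5* minus wild type, so a positive one is higher in *hy5*. Signals of different probes are not set against each other, because probes differ in how well they hybridize.

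Each genotype had a slide and a scan of its own, so the effects of slide and genotype cannot be told apart. The third quartile was an intensity of 981 to 1057 on the *hy5* arrays and 487 to 558 on the wild-type arrays, and all changes are relative to it. The *HY5* transcript (AT5G11260), which checks the labels, had signals of 0.0217, 0.0283 and 0.0169 in *hy5* and of 1.32, 1.38 and 1.24 in wild type. Its log2 difference was -5.91 (standard error 0.178, limma adjusted p = 7.57e-06). Markers of green tissue and of root stood well above background in each genotype on all its arrays, other than the root stem cell gene *WOX5*, which was so on 2 of the 3 wild-type arrays.

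All 43 members passed the filter on dim probes, and 42 of them were well above background on all 6 arrays. The exception was *XTH17*, which was so on all 3 *hy5* arrays and on 2 of the 3 wild-type arrays. By limma, 8 members were called higher in *hy5* (4 *EXPA* and 4 *XTH* genes) and 1 was called lower (an *XTH* gene). Of all genes tested, 6.55% were called higher and 4.84% lower. The called share was thus 21.1% higher and none lower among the *EXPA* genes, and 16.7% higher and 4.17% lower among the *XTH* genes. In whole seedlings, a change in the number of cells that express a gene and a change in its level per cell cannot be told apart.

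Without the 2-fold limit, 11 of 19 *EXPA* genes (57.9%) were past the adjusted p with a higher value in *hy5*, and none with a lower one. Among the *XTH* genes, 12 of 24 (50%) were past it with a higher value and 5 with a lower one. Over all genes tested, the shares were 26.3% higher and 26.6% lower. With normexp, a background correction that adds an offset of 50 to each spot and moved the median of all genes tested to -0.20, these counts were 12 higher and 2 lower for *EXPA* and 13 higher and 7 lower for *XTH* genes, against 21.1% and 48.6% of all genes tested. The lower *EXPA* genes were then the dim *EXPA4* (-0.39, limma adjusted p = 0.000894) and *EXPA12* (-0.70, limma adjusted p = 1.5e-05). The offset is added before the division by the third quartile, which was higher on the *hy5* arrays. By arithmetic it thus weighs more in wild type, above all for dim probes. Its part in these values was not tested, because no other offset was run, so these p-values alone do not show a fall in expression. The median log2 difference was 0.67 over the *EXPA* genes and 0.31 over the *XTH* genes, against -0.0044 over all genes tested. The *EXPA* genes ranged between -0.28 and 4.18 and the *XTH* genes between -1.10 and 1.84. The genotypes did not overlap in 14 *XTH* genes that were higher in *hy5* and 5 that were lower, where 30.8% and 31.7% of all genes tested were. Whether the 2 families differ from each other or from other genes was not tested.

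**Figure D1:**
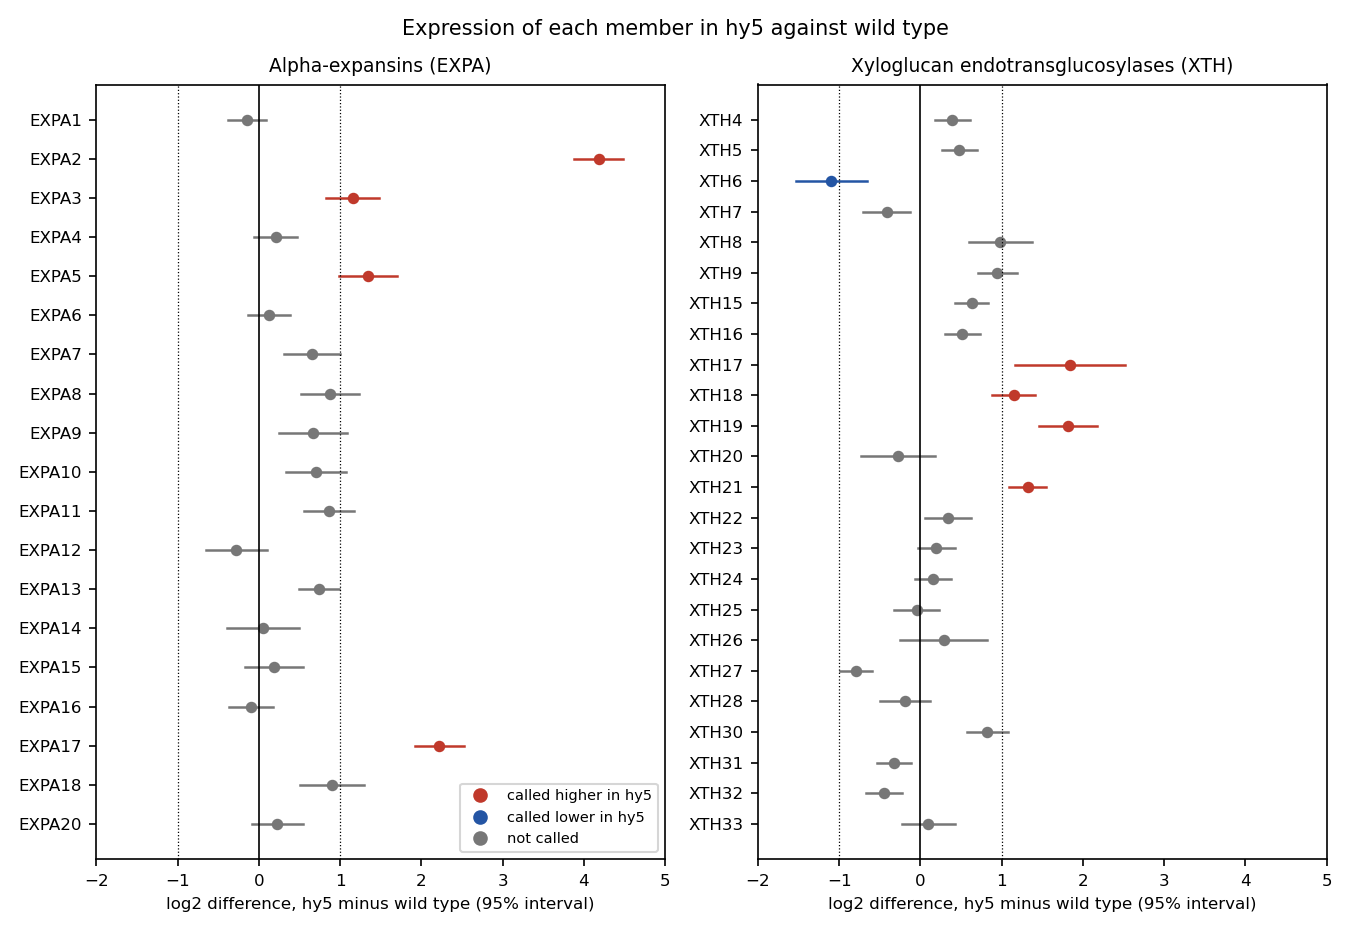
Log2 difference in expression of each of the 43 members, *hy5* minus wild type (x axis), with its 95% interval from limma (lines, n = 3 arrays a genotype), for 19 *EXPA* genes (left) and 24 *XTH* genes (right). Red points are called higher and the blue point lower in *hy5*, and dotted lines mark 2-fold. *EXPA2* stands at 4.18, and the other called members lie between -1.10 and 2.22.

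*EXPA2* (AT5G05290) had the highest rise among the members. It is known as an expansin of germinating seeds, expressed in the endosperm and induced by gibberellin. Its signal was 27.3, 27.5 and 23.8 on the *hy5* arrays and 1.54, 1.22 and 1.59 on the wild-type arrays. The genotypes were far apart and the arrays of each were close together. The mean was 26.2 ± 2.08 in *hy5* and 1.45 ± 0.201 in wild type (SD, n = 3 each), an 18.2-fold rise (log2 difference 4.18, 95% interval 3.88 to 4.48, limma adjusted p = 7.57e-06). Over all alternatives of processing the log2 difference lay between 4.06 and 4.26.

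Seed maturation genes, which encode storage and late embryo proteins, moved with *EXPA2*. All 8 genes of that list (*EM1*, *EM6*, *CRA1*, *CRC*, *OLEO1*, *OLEO2*, *SESA1* and *SESA3*) were called higher in *hy5*, against 6.55% of all genes tested. The median of the list was 3.10 on the log2 scale. The summed signal of the 8 genes was 13.6, 11.3 and 7.32 on the *hy5* arrays and 1.30, 1.57 and 0.655 on the wild-type arrays. Bright probes weigh most in this sum, chiefly *CRA1* and *CRC* (means of 3.61 and 2.79 in *hy5*). None of the 8 genes was at background on all arrays, and *SESA1* was well above background on no wild-type array. The sum differed more between *hy5* arrays than *EXPA2* did. The array order was shared in part. Both were lowest on *hy5* replicate 3, while the sum was highest on replicate 1 and *EXPA2*, by little (27.5 against 27.3), on replicate 2. *EM6*, *OLEO2*, *SESA1* and *SESA3* were also highest on *hy5* replicate 2, *CRA1*, *CRC* and *OLEO1* on replicate 1 and *EM1* on replicate 3. On wild-type replicate 3 the sum was lowest and *EXPA2* highest. The part of seed transcripts in the rise of *EXPA2* was not tested.

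*EXPA17* (AT4G01630), known from the cells around emerging lateral roots, had the next highest rise among the *EXPA* genes. Its signal was 0.891, 1.13 and 0.997 in *hy5* and 0.247, 0.203 and 0.197 in wild type. All *hy5* arrays were several times above all wild-type arrays, and the log2 difference was 2.22 (standard error 0.130, limma adjusted p = 3.11e-05), or 4.66-fold. *EXPA14* (AT5G56320), another expansin known from lateral root formation, had overlapping signals of 0.148, 0.197 and 0.233 in *hy5* and 0.172, 0.160 and 0.220 in wild type. Its log2 difference was 0.06 (95% interval -0.39 to 0.50).

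*EXPA5* (AT3G29030), which is known to act in hypocotyl growth under brassinosteroids, had signals of 7.29, 11.0 and 9.0 in *hy5* and of 3.52, 3.33 and 3.78 in wild type. The lowest *hy5* array was above the highest wild-type array, and the rise was 2.54-fold (log2 difference 1.34, standard error 0.154, limma adjusted p = 0.000401). The second *EXPA5* probe gave a log2 difference of 1.40. *EXPA3* (AT2G37640) had signals of 19.6, 26.2 and 22.9 in *hy5* and of 9.60, 9.41 and 11.7 in wild type, again without overlap. It rose 2.23-fold (log2 difference 1.16, standard error 0.139, limma adjusted p = 0.000495), and 1.45 at its second probe.

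A further 7 *EXPA* genes were past the adjusted p but under 2-fold, all higher in *hy5*. They were *EXPA18* (log2 difference 0.90), *EXPA8* (0.88), *EXPA11* (0.87), *EXPA13* (0.74), *EXPA10* (0.70), *EXPA9* (0.67) and *EXPA7* (0.66), with limma adjusted p of 0.00108 to 0.0161. *EXPA10* is known from growing leaves and petioles. Of the 3 *EXPA8* probes, the brightest gave 0.88, the next 1.00 and the dimmest 1.28, so that the call of this gene depends on the probe. In each of these 7 genes, as in the 4 called ones, the *hy5* arrays did not overlap the wild-type arrays, against 30.8% of all genes tested in that direction. 

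*EXPA7* and *EXPA18* are the expansins of root hairs. *EXPA7* had signals of 2.62, 3.21 and 2.88 in *hy5* and of 1.71, 1.61 and 2.26 in wild type. *EXPA18* had 1.61, 2.23 and 1.78 in *hy5* and 0.832, 0.986 and 1.19 in wild type. Neither gene overlapped between genotypes. Both were highest on *hy5* replicate 2 and wild-type replicate 3, as were 17 and 14 of the 19 *EXPA* genes. Of the 6 root hair markers (*COBL9*, *RHD2*, *RSL4*, *PRP3*, *PRP1* and *RHS19*), all well above background on every array, 3 were past the adjusted p with a higher value in *hy5* and none was called. The summed signal of the 6 was 10.9 to 11.9 in *hy5* and 7.90 to 10.6 in wild type. Bright probes weigh most in this sum, chiefly *COBL9* (mean 4.95 in *hy5* and 3.34 in wild type). The dim *RHD2* and *RSL4* (means of 0.305 and 0.292 in *hy5*) weigh little. Past the adjusted p were *COBL9* at 0.58, *PRP3* at 0.52 and *RHS19* at 0.39 (limma adjusted p of 0.0086, 0.0499 and 0.0324). They make 50% of the list, against 26.3% of all genes tested. *RHD2* was at -0.31, *PRP1* at -0.0028 and *RSL4*, a transcription factor that drives hair growth, at -0.30 (limma adjusted p of 0.117, 0.985 and 0.0702). The part of root hair number in the values of *EXPA7* and *EXPA18* was not tested.

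The other 8 *EXPA* genes did not pass the adjusted p, and their log2 differences lay between -0.28 and 0.23. They were *EXPA1*, *EXPA4*, *EXPA6*, *EXPA12*, *EXPA14*, *EXPA15*, *EXPA16* and *EXPA20*. The second, dimmer *EXPA20* probe was at 0.32 and past the p adjusted over all probes tested (limma adjusted p = 0.0282). *EXPA16* (AT3G55500), next to *EXPA14* the nearest to 0, had signals of 0.237, 0.309 and 0.259 in *hy5* and 0.273, 0.294 and 0.286 in wild type. The genotypes overlapped, and its log2 difference was -0.09 (95% interval -0.36 to 0.18).

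*EXPA1* (AT1G69530), known for its part in stomatal movement in guard cells, had 5.53, 6.37 and 5.51 in *hy5* and 6.74, 6.44 and 6.07 in wild type. Its log2 difference was -0.15 (95% interval -0.38 to 0.08). The 4 guard cell markers *MYB60*, *KAT1*, *FAMA* and *SLAC1* were all past the adjusted p with lower values in *hy5* (median -0.96), and *MYB60* and *KAT1* were called. Of all genes tested, 26.6% were past it as lower and 4.84% were called lower. The summed signal of the 4 markers was 0.623 to 0.659 in *hy5* and 1.21 to 1.46 in wild type, with *SLAC1* well above background on 2 of the 3 wild-type arrays. *EXPA1* thus stood nearer to 0 than each of the 4 markers, a difference that was not tested.

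**Figure D2:**
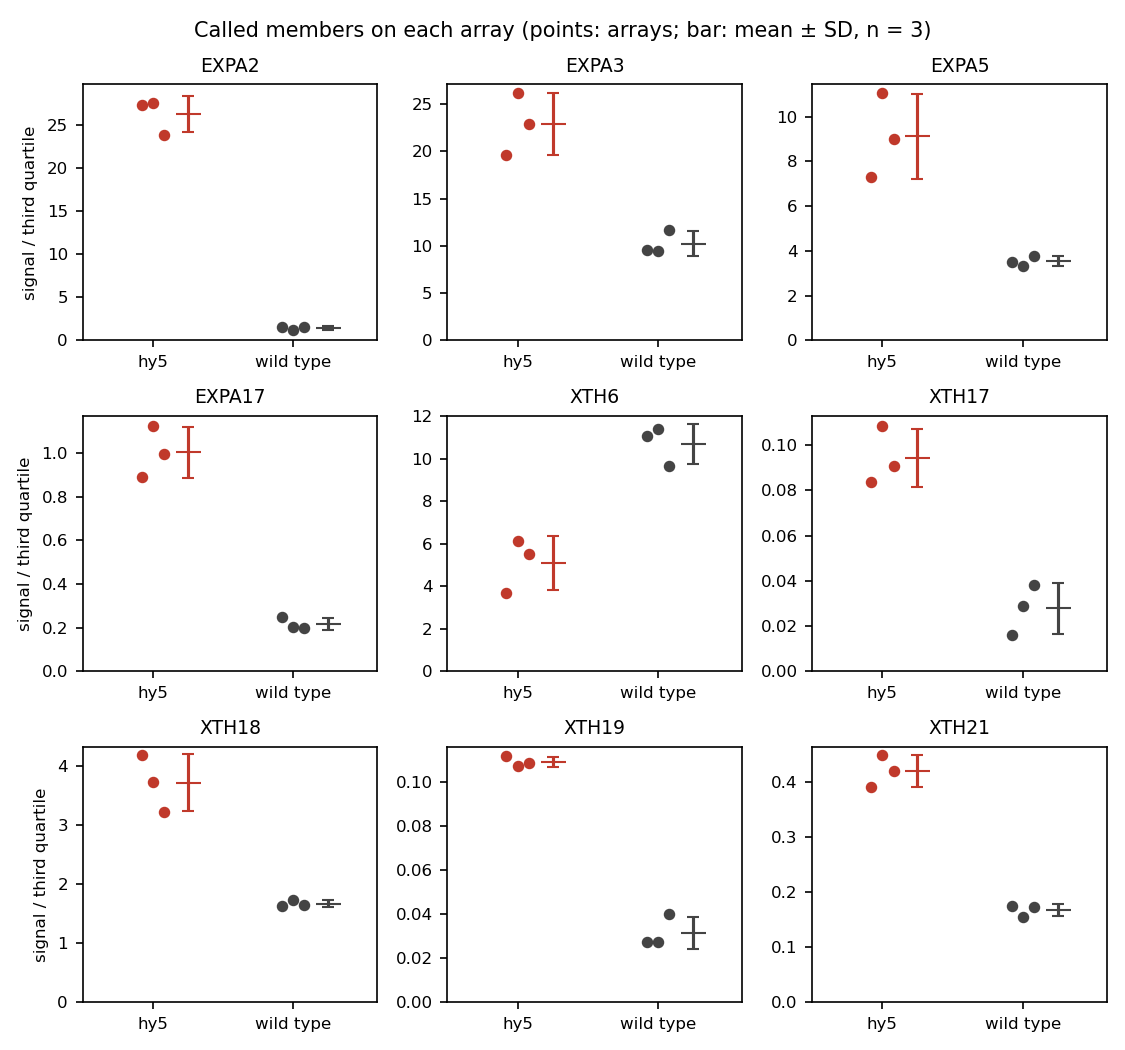
Signal over the third quartile of the array (y axis, linear, from 0) of the 9 called members in *hy5* and wild type. Points are arrays and bars the mean ± SD (n = 3). In each panel the 3 *hy5* arrays lie apart from the 3 wild-type arrays, above them in 8 genes and below them in *XTH6*.

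The *XTH* genes fall by sequence into groups that are numbered I, II and III in the literature. All 4 called rises were in group II, which has 12 members here, but with normexp 3 were called, *XTH18* of group II and *XTH8* and *XTH9* of group I. In group II, 7 genes (58.3%) were past the adjusted p with a higher value in *hy5* and none with a lower one (median 0.43). In group I, 4 of 6 were past it with a higher and 2 with a lower value (median 0.44). In group III, 1 of 6 was past it with a higher and 3 with a lower value (median -0.26). The higher and lower shares were 66.7% and 33.3% in group I and 16.7% and 50% in group III. Over all genes tested they were 26.3% and 26.6%, and in groups of 6 a single gene moves the share far. Differences between the groups were not tested.

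The called *XTH* genes of group II were *XTH17*, *XTH18*, *XTH19* and *XTH21*, all of which are known as genes of the root. *XTH17*, *XTH18* and *XTH19* belong with *XTH20* to 1 branch of the family, and near-identical copies can share probe signal. *XTH18* (AT4G30280) had signals of 4.19, 3.73 and 3.22 in *hy5* and of 1.63, 1.73 and 1.65 in wild type. *XTH21* (AT2G18800) had 0.391, 0.449 and 0.419 in *hy5* and 0.175, 0.156 and 0.173 in wild type. Neither overlapped between genotypes. *XTH18* rose 2.22-fold (log2 difference 1.15, standard error 0.114, limma adjusted p = 0.00022) and *XTH21* 2.5-fold (log2 difference 1.32, standard error 0.0976, limma adjusted p = 7.05e-05). With normexp background correction, *XTH21* was at 0.91, under the 2-fold limit.

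The other 2 were dim. *XTH19* (AT4G30290) had 0.112, 0.107 and 0.108 in *hy5* and 0.0273, 0.0275 and 0.0399 in wild type. *XTH17* (AT1G65310) had 0.0838, 0.109 and 0.0906 in *hy5* and 0.0162, 0.0289 and 0.0384 in wild type, where its lowest value was not well above background. The log2 difference was 1.81 for *XTH19* (standard error 0.154, limma adjusted p = 0.000118) and 1.84 for *XTH17* (standard error 0.290, limma adjusted p = 0.00161). Under normexp, *XTH19* was at 0.35 and *XTH17* at 0.19, and neither was called. The size of the change of these 2 genes thus differed between background corrections, and the part of the normexp offset in this was not tested.

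*XTH20* (AT5G48070), of the same branch, was at 0.0512, 0.0427 and 0.0406 in *hy5* and 0.0431, 0.0506 and 0.0730 in wild type. These values overlapped, and the log2 difference was -0.28 (95% interval -0.74 to 0.18). Under normexp it was at -0.66 (limma adjusted p = 1.9e-05), and the part of the offset in the value of this dim probe was not tested. Root markers stood beside these results as follows. The Casparian strip gene *CASP1* was called higher in *hy5* (log2 difference 1.06), its relative *CASP2* was at 0.88 (limma adjusted p = 0.000237), and *SCR*, a gene of endodermis and stem cells, was at -0.62 (limma adjusted p = 0.00281). The other 4 of the 7 root markers, *SHR*, *PLT1*, *PLT2* and *WOX5*, were between -0.04 and 0.03. The summed signal of the 7 was 19.6 to 24.8 in *hy5* and 17.8 to 20.4 in wild type, which overlap. Bright probes weigh most in this sum, chiefly *CASP1* (mean 11.8 in *hy5* and 5.59 in wild type) and *SCR* (6.57 and 10.1). These 2 moved in opposite directions, so the sum does not measure the amount of root tissue. The part of root tissue in the *XTH* rises was not tested.

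**Figure D3:**
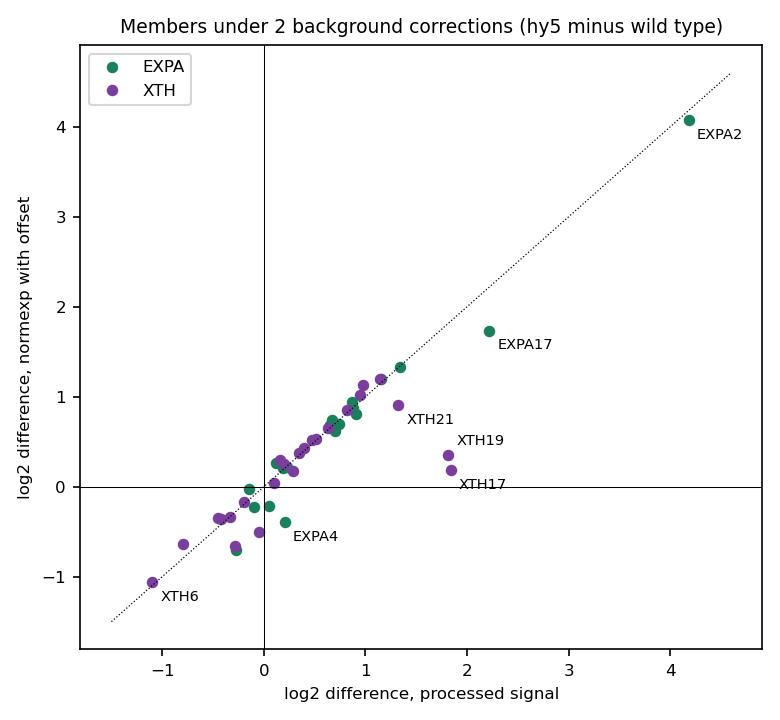
Log2 difference (*hy5* minus wild type) of the 43 members from the processed signal (x axis) and from normexp background correction with an offset (y axis), in green for *EXPA* and purple for *XTH* genes. The dotted line marks equal values. *EXPA2* stays near it at 4.18 and 4.07, while *XTH17* and *XTH19* lie far below it, at 0.19 and 0.35 under normexp.

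*XTH18*, *XTH19* and *XTH24* are neighbors on chromosome 4, in the order *XTH24*, *XTH18*, *XTH19* with no other gene of the TAIR10.1 table between them, and *XTH22* and *XTH25* are neighbors on chromosome 5. *XTH24* (*MERI5B*) was not past the adjusted p, at 0.16 by its brightest probe. All 5 *XTH24* probes were between 0.03 and 0.33. Those at 0.33 and 0.31 were past the p adjusted over all probes tested (limma adjusted p of 0.0228 and 0.0193). On each array the log2 values of 2 neighbors were subtracted, and these differences were compared between genotypes by an exact permutation test (two-sided, 4 pairs), for which 3 against 3 arrays cannot give a p under 0.1. The shift was 1.66 for *XTH19* minus *XTH24*, 0.99 for *XTH18* minus *XTH24*, -0.67 for *XTH18* minus *XTH19* and 0.39 for *XTH22* minus *XTH25*. In each pair the 3 *hy5* values lay apart from the 3 wild-type values, and each exact p was 0.1, also after adjustment over the 4 pairs. Under normexp the shift was 0.054 for *XTH19* minus *XTH24* (exact p = 0.7), 0.90 for *XTH18* minus *XTH24*, 0.85 for *XTH18* minus *XTH19* and 0.89 for *XTH22* minus *XTH25*. The direction between *XTH18* and *XTH19* thus turned with normexp, and *XTH19* no longer stood apart from *XTH24*. The part of the normexp offset in the value of the dim *XTH19* probe was not tested. Since the direction depends on the background correction, these shifts cannot rank *XTH18* and *XTH19*.

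*XTH25* (AT5G57550) was the *XTH* gene with the log2 difference nearest to 0, at -0.05 (95% interval -0.33 to 0.23). Its signal was 0.0531, 0.0672 and 0.0515 in *hy5* and 0.0582, 0.0591 and 0.0591 in wild type, within the spread of the *hy5* arrays. Under normexp it was at -0.51 (limma adjusted p = 0.00020), and the part of the offset in the value of this dim probe was not tested. Its neighbor *XTH22*, which is the touch-induced gene *TCH4*, was past the adjusted p at 0.34 (limma adjusted p = 0.0459). It missed that threshold in 9 of 21 alternatives, among them 5 of the 6 with an array left out, and its adjusted p ranged between 0.0042 and 0.162. Of the other touch genes, the calmodulin gene *TCH1* was at 0.65 (limma adjusted p = 0.00163), and the calmodulin-like genes *TCH2* and *TCH3* were at -0.33 and -0.39 (limma adjusted p of 0.0504 and 0.0532). Their summed signal was 6.13 to 7.56 in *hy5* and 6.25 to 6.41 in wild type. The part of handling in the value of *XTH22* was not tested.

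Also in group II, *XTH15* and *XTH16* were past the adjusted p at 0.63 and 0.51. *XTH15* (*XTR7*) is widely used as a gene of the shade response. Its signal was 8.93, 8.99 and 8.70 in *hy5* and 5.75, 5.39 and 6.08 in wild type, and its second probe gave 0.71. *XTH23* and *XTH26* did not pass, at 0.20 and 0.29. *XTH26*, a gene of root hairs, had the widest interval of the group II genes that did not pass (-0.25 to 0.82).

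*XTH6* (AT5G65730), of group I, was the called fall. Its signal was 3.68, 6.11 and 5.50 in *hy5* and 11.1, 11.4 and 9.64 in wild type. The genotypes did not overlap, and *hy5* replicate 1 was the lowest array. The gene was 2.14-fold lower in *hy5* (log2 difference -1.10, standard error 0.188, limma adjusted p = 0.00233). Without *hy5* replicate 1 the log2 difference was -0.88, so the 2-fold limit was then missed.

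The other group I genes were all past the adjusted p and under 2-fold. *XTH8* was at 0.98 and *XTH9*, known from the shoot apex, at 0.94 (limma adjusted p of 0.00225 and 0.000331). *XTH9* had signals of 9.87, 12 and 10.6 in *hy5* and of 5.65, 5.37 and 5.81 in wild type. Its second probe gave 1.11 and was called. *XTH8* and *XTH9* were called under normexp, at 1.13 and 1.02. *XTH5* was at 0.48 and *XTH4*, described early as an endoxyloglucan transferase, at 0.39, while *XTH7* was lower in *hy5* at -0.42 (limma adjusted p = 0.0244). *XTH7* had 32.7, 44.6 and 37.6 in *hy5* and 52.1, 49.1 and 51.0 in wild type.

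In group III, *XTH27* (AT2G01850, *EXGT-A3*), known from the formation of leaf veins, was lower in *hy5* and close to the limit. Its signal was 6.90, 6.55 and 6.46 in *hy5* and 11.5, 11.9 and 11.1 in wild type. The arrays of each genotype were close together, and the log2 difference was -0.80 (standard error 0.0845, limma adjusted p = 0.000294). Its other, dimmer probe gave -1.03 and was called. *XTH31* and *XTH32*, whose branch is known for hydrolysis of xyloglucan, were lower as well, at -0.33 and -0.45 (limma adjusted p of 0.0169 and 0.0054).

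*XTH30* was the group III gene with a higher value past the adjusted p, at 0.82 (limma adjusted p = 0.000716). *XTH28* was at -0.19 (95% interval -0.50 to 0.12). *XTH33* (AT1G10550), a membrane-bound member, had signals of 0.322, 0.443 and 0.321 in *hy5* and of 0.352, 0.325 and 0.326 in wild type. Its *hy5* arrays lay on both sides of wild type, and its log2 difference was 0.10 (95% interval -0.23 to 0.42).

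The arrays of a genotype differed for many members at once. *hy5* replicate 1 had the lowest of the 3 *hy5* values in 16 of 19 *EXPA* genes and replicate 2 the highest in 17 of 19. Over all genes tested, replicate 1 was the lowest in 38.8% and replicate 2 the highest in 37.4%. Relative to the wild-type mean, the median of the *EXPA* genes on the log2 scale was 0.41, 0.83 and 0.73 on *hy5* replicates 1 to 3, and -0.0083, -0.087 and 0.12 on the wild-type arrays. In the *XTH* genes, *hy5* replicate 1 was the lowest in 14 of 24 and replicate 2 the highest in 14 of 24. The family medians on the *hy5* arrays were above those on each wild-type array in both families.

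**Figure D4:**
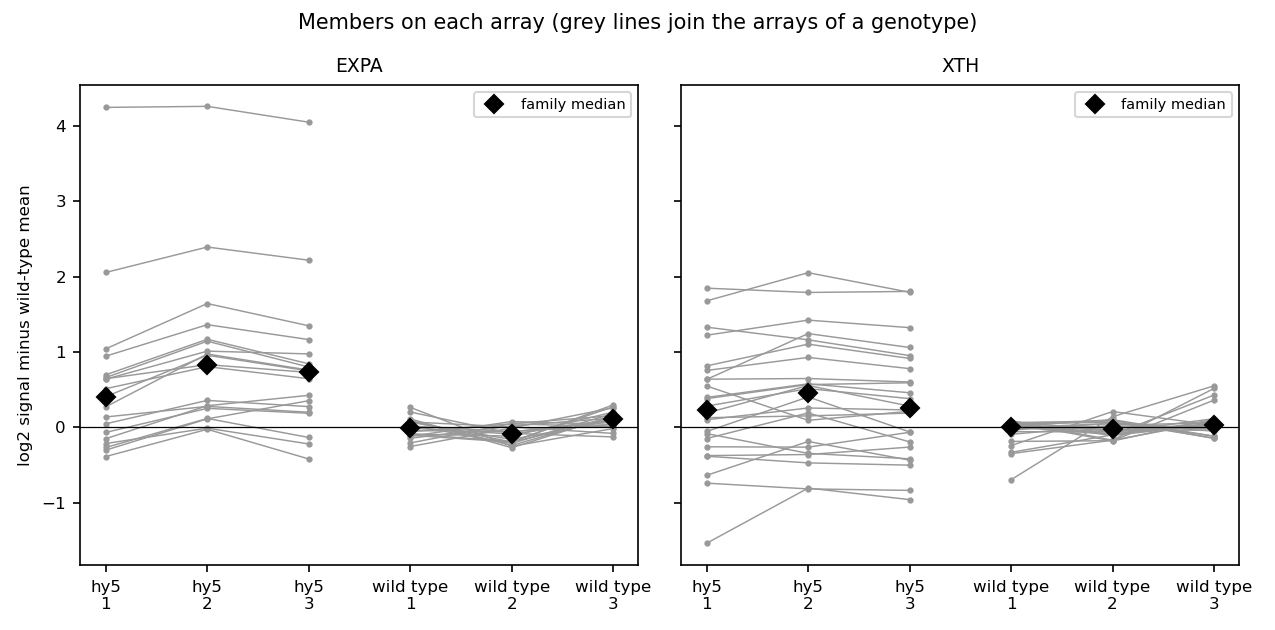
Log2 signal of each member minus its wild-type mean (y axis) on the 3 *hy5* and 3 wild-type arrays (x axis), for 19 *EXPA* genes (left) and 24 *XTH* genes (right). Grey lines join the values of 1 gene, and black diamonds are family medians. The *EXPA* medians were 0.41, 0.83 and 0.73 on the *hy5* arrays.

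**Figure D5:**
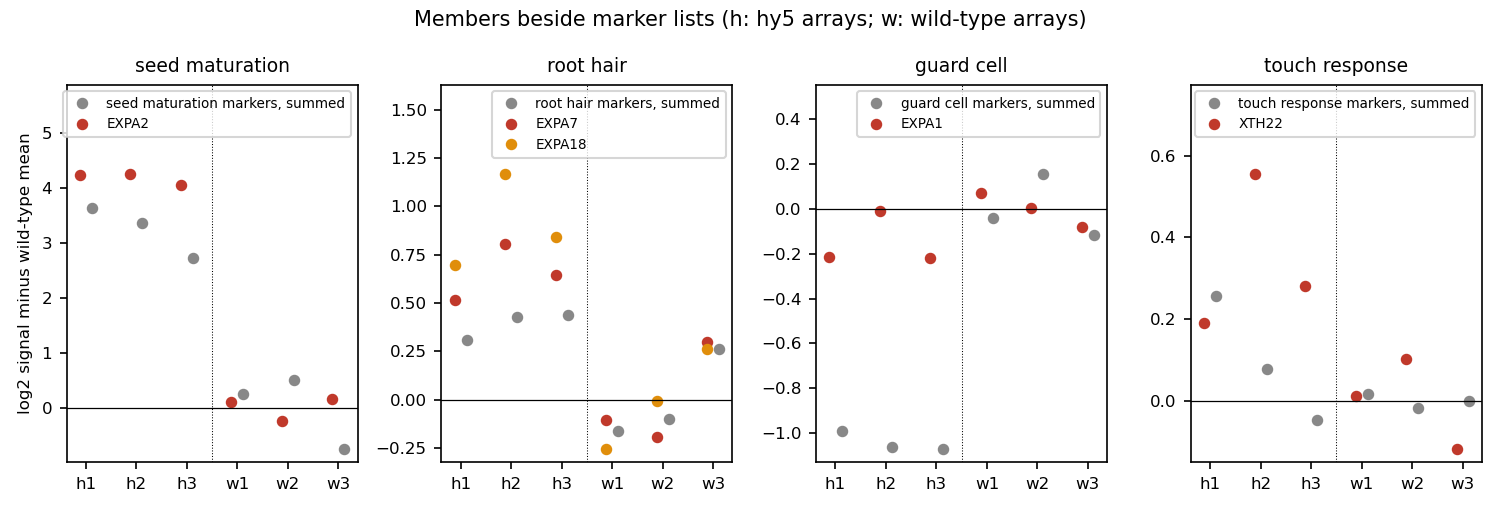
Log2 signal minus the wild-type mean (y axis) on the *hy5* arrays (h1 to h3) and the wild-type arrays (w1 to w3) for members (colored points) and the summed signal of a marker list (grey points). *EXPA2* and the 8 seed maturation markers are both high on all *hy5* arrays, while *EXPA1* stays near 0 where the 4 guard cell markers are low.

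The array also holds 26 further genes of the expansin and XTH families, of which 13 were tested and 12 were well above background on no array. Of the 13, *XTH14* was called higher in *hy5* and *XTH3* lower, or 7.69% each, near the 6.55% and 4.84% of all genes tested. *XTH14*, known from the root, had signals of 14.5, 18.7 and 15.6 in *hy5* and of 6.98, 6.53 and 8.91 in wild type (log2 difference 1.13, limma adjusted p = 0.000772). *XTH3* was dim, at 0.0088 to 0.00948 in *hy5* and 0.0369 to 0.0419 in wild type (log2 difference -2.13). Another 5 were past the adjusted p with higher values under 2-fold, *EXLA1* (0.85), *EXLA3* (0.79), *XTH12* (0.74), *EXPB1* (0.71) and *EXPB3* (0.50). *XTH11* was at -0.86 (limma adjusted p = 0.000564). With the called genes, 46.2% of the 13 were past the adjusted p as higher and 15.4% as lower, against 26.3% and 26.6% of all genes tested.

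The substrate of the XTHs is made and trimmed by other enzymes. Of 14 such genes tested, 4 were past the adjusted p with higher values in *hy5*, 1 with a lower value and none was called (median 0.16). These are 28.6% and 7.14% of the list, against 26.3% and 26.6% of all genes tested, so the share of higher genes was near that of all genes. The galactosidase gene *BGAL10*, which trims xyloglucan, was at 0.88, the xylosyltransferase gene *XXT5* at 0.42, the backbone synthase genes *CSLC4* and *CSLC8* at 0.39 and 0.26, and the galactosyltransferase gene *MUR3* at -0.28. Of 8 genes of primary wall cellulose synthesis, 4 were past the adjusted p with lower values, 1 with a higher value and none was called (median -0.26), or 50% and 12.5% of the list. The cellulose synthase genes *CESA5*, *CESA2*, *CESA6* and *CESA3* were at -0.79, -0.62, -0.41 and -0.27, and *COB*, which encodes a membrane-anchored wall protein, was at 0.35.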

How the data were processed

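Total RNA of 3 *hy5* and 3 wild-type samples was labeled with Cy3 and hybridized to 1 array each (45220 spots). The deposited scanner files hold intensity values from Agilent Feature Extraction 10.7.3, subtracted for background and detrended by that software. The authors also deposited a table of 38464 entries, in which each intensity is given as a ratio to the third quartile of its array, with all 43 members, and it served as an alternative input.

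From the scanner files, the processed intensity of each plant probe was divided by the 75th percentile of its array and taken to log2, and repeated spots were averaged. No pseudocount was added. The 30 probes with an outlier flag, none of a member, were left out, and no spot was saturated. Tested probes had the scanner's well-above-background flag on every array of 1 genotype or both. The linear models of limma 3.58.1 (lmFit and eBayes, R 4.3.3) were used with Benjamini-Hochberg adjustment over the 21590 genes. The procedure was tested on simulated data with known changes. No depth exists for arrays, so the precision is limited by their number.

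Members and gene lists (further family genes, xyloglucan and cellulose synthesis, and markers of seed maturation, root hair, root, guard cell, green tissue and touch) were chosen with earlier results of these data known. Values on every array are given for called members and for the 2 members of each family nearest to 0, and members past the adjusted p are given by their log2 difference. Values of some other members and of *XTH14* and *XTH3* were added after they had been seen. All 43 locus codes were found in the TAIR10.1 gene table, where 4 have another symbol. The 4 green tissue markers were past the adjusted p with lower values in *hy5* (log2 differences -0.44 to -0.33), as were 26.6% of all genes tested, and none of the 4 was called. Chromosome and gene order come from that table, and no sequences or coordinates were used here. Alternatives covered background correction, scaling, the filter, the choice of probe, the input, the variance model, the methods' t-test, the replicate block and each array left out.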

Additional observations from a re-analysis of the deposited data

How the results depend on the processing

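Of 902 log2 differences of the 43 members under 21 alternatives, 876 changed neither sign nor call. In 7 the direction turned, in members that were not past the adjusted p: *EXPA14* was at -0.21 with normexp, -0.094 without *hy5* replicate 3 and -0.037 without wild-type replicate 2 (-0.094 to 0.23 with an array left out), *EXPA4* at -0.39 with normexp (past the adjusted p there), *XTH25* at 9.1e-05 without *hy5* replicate 1 and 0.023 without *hy5* replicate 3 (-0.17 to 0.023), and *XTH33* at -0.057 without *hy5* replicate 2 (-0.057 to 0.18). Normexp shifted the median of all genes to -0.20, and with it *EXPA12* (-0.70), *XTH20* (-0.66) and *XTH25* (-0.51) were also past the adjusted p as lower. These members and *EXPA4* are dim. The part of the offset in their values was not tested, so these results alone do not show a fall in expression. The *XTH* genes called lower were 2 when any probe of a gene could count (*XTH6* and *XTH27*) and between 0 and 1 with an array left out, being 0 without *hy5* replicate 1. With an array left out, between 4 and 5 *EXPA* and between 4 and 6 *XTH* genes were called higher, against 4 each with all arrays. Calls were lost for *XTH17*, *XTH19* and *XTH21* with normexp (0.19, 0.35 and 0.91), for *XTH6* without *hy5* replicate 1 (-0.88), and for *EXPA5* and *XTH18* with the methods' t-test after adjustment (the causes were not tested). Calls were gained in at least 1 alternative by *EXPA8*, *EXPA18*, *XTH8*, *XTH9* and *XTH27*. With the filter on all 6 arrays *XTH17* was not tested.

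Same-numbered arrays did not deviate together (correlations of -0.025, -0.087 and 0.085), and no pairing was therefore assumed. With the replicate block, 4 *EXPA* and 4 *XTH* genes were called higher and 1 *XTH* gene lower, the counts found without it, and over all genes 1420 were higher and 1050 lower. Over all genes, 1414 were called higher and 1046 lower, against 528 and 723 with normexp, 1383 and 3664 without a filter, and 868 and 851 with the methods' t-test after adjustment. A block for slide or scan could not be fitted, since each held 1 genotype. Dim members such as *XTH17*, *XTH19*, *XTH20* and *XTH25* are limited by their signal over background.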
